A study of Mus musculus with 3 samples.

Results

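The 8 genes described here encode AP-1 transcription factors and close relatives, namely Fos, Fosb, Fosl2, Jun, Junb, Jund, Atf3 and Maff, out of 27998 genes in the deposited count matrix. They were matched by gene symbol, and the set was selected on UMI counts in earlier results of these same data, so their levels are a description and carry no test. Of the 8 genes, 6 (Atf3, Fos, Fosb, Jun, Junb and Jund) also stand in a gene list that was chosen on these samples, which is not independent evidence of their direction.

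Microglia were collected as YFP (+) cells by fluorescence-activated sorting. The lumbar cords came from C57BL/6 mice, young adults, that were heterozygous for the Cx3cr1-creER-yfp allele. All 3 groups carried this allele, and they were naive animals, animals 24 h after sciatic nerve transection (SNTr24h) and animals 48 h after it (SNTr48h). The YFP is driven from the Cx3cr1 locus, so any cell that uses this locus can be sorted, and one copy of Cx3cr1 is replaced in every group. Cells of 3 animals were pooled per group and made into 1 library, so there are no replicates and no test between libraries was made. Tissue was homogenised, separated on Percoll, sorted with size selection and doublet exclusion, and cells were held in serum-free medium with TGF-β2, IL34 and cholesterol.

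Transcripts were counted by unique molecular identifiers (UMIs), and a cell's library can be read only from the suffix 1, 2 or 3 of its barcode. The sources used here do not say which suffix belongs to which time point. The libraries are therefore called library 1, 2 and 3, each of unknown time point, and a difference between them cannot be read as an effect of time or injury. Library 1 held 609 cells and 1343055 UMIs, with a median of 2218 UMIs per cell. Library 2 (3591 cells, 24097543 UMIs, median 5952) and library 3 (3322 cells, 19769170 UMIs, median 5742) were deeper. Of the 16-base cell barcodes, libraries 3 and 2 shared 19, libraries 3 and 1 shared 3 and libraries 2 and 1 shared 5. All 10 microglia markers, among them P2ry12, Tmem119 and Csf1r, were found in each library, with a summed level of 22976 to 28093 CPM (UMIs per 1000000 UMIs of the library). Every cell of at least 2000 UMIs had UMIs of at least 2 of them. The defining genes of monocytes, perivascular macrophages, neurons, red blood cells and neutrophils summed to at most 8.93 CPM per list in any library. The astrocyte list summed to 100 to 164 CPM, nearly all of it Slc1a3, while Gfap reached at most 1.12 CPM and Gja1 at most 0.166 CPM. The oligodendrocyte list summed to 64.2 to 78.9 CPM, the endothelial list to 15.8 to 35.0 CPM and the T and NK cell list to 0.253 to 14.6 CPM, with no UMI of the endothelial gene Cldn5 in any cell. Since no cell type that should lack AP-1 genes was present, the share of cells with a UMI that free RNA alone would give could not be measured.

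AP-1 proteins are basic leucine zipper (bZIP) factors that bind DNA as dimers. FOS family proteins pair with JUN family proteins, while JUN proteins can also pair with each other and with ATF proteins such as ATF3, and small MAF proteins such as MAFF bind related sites and lack a transactivation domain. Fos, Fosb, Jun, Junb and Atf3 are classical immediate early genes, switched on within minutes of a stimulus without new protein synthesis, through serum response, CRE and similar elements in their promoters. In microglia they are known to respond to activating stimuli and also to tissue dissociation.

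The 150 bases before the start are shown for the 5 members named above as immediate early genes. All 5 were highest in library 3, but so was Jund, whose window is not shown. All 8 members matched a promoter in RefSeq (build GRCm38.p6), with 10 annotated starts. The Fos window lies at chr12:85473740-85473889 on the + strand, directly upstream of the gene (GENCODE M21, chr12:85473890-85477273). The Fosb window lies at chr7:19310046-19310195 on the − strand and overlaps the first bases of the longest GENCODE transcript (gene chr7:19302696-19310051). The Jun window lies at chr4:95052223-95052372 on the − strand, upstream of a gene of 1 exon (chr4:95049034-95052222) that the antisense gene Junos overlaps. The Junb window lies at chr8:84978749-84978898 on the − strand (gene chr8:84974484-84978718). The Atf3 window lies at chr1:191183334-191183483 on the − strand, upstream of an internal start within the gene (chr1:191170296-191218039). The sequences are written 5′ to 3′ along each gene's strand, and capitals mark a CRE half-site (TGACG on one strand, CGTCA on the other) or a CRE-like site (TGACNTCA).
Fos: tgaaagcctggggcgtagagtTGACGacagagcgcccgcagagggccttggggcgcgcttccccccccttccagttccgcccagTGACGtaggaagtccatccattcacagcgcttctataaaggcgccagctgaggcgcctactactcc
Fosb: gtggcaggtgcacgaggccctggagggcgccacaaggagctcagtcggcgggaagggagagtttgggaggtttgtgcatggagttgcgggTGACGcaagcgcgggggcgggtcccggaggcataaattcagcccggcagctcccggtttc
Jun: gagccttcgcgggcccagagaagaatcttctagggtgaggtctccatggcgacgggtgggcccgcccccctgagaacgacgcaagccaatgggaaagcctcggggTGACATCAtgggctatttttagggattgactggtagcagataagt
Junb: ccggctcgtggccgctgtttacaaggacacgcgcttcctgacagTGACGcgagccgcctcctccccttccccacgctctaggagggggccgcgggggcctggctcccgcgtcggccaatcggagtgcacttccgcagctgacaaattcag
Atf3: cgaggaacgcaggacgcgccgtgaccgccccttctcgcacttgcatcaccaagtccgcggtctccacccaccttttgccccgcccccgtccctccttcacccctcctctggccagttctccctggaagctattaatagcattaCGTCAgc
Counting back from the base before the start as −1, Fos had 2 half-sites, at −129 to −125 and at −66 to −62. Fosb had 1 half-site at −60 to −56 and Junb had 1 at −106 to −102. Atf3 had 1, read on the other strand, at −7 to −3. Jun had the CRE-like site TGACATCA at −45 to −38. The search covered 250 bases before each start on both strands, and a CRE-like site with G at its open position also counts as a half-site. Of all 32851 RefSeq windows of that length, 17.8% held a half-site and 7.49% a CRE-like site. The AP-1 site TGANTCA, found in 6.75% of all windows, and the CArG box of serum response factor, found in 1.47%, had no match in any of the 10 windows of the members. The windows end short of more distant elements, such as the well-known serum response element of Fos, so nothing is read from the lack of a match. The windows of Fosl2, Jund and the first Maff start had no match, while the other two Maff starts each had a CRE-like site, TGACGTCA at −29 to −22 and TGACATCA at −45 to −38. The Jund window (chr8:70697589-70697738) ends upstream of the GENCODE gene (chr8:70698949-70700616, + strand) and does not reach it. The Fosl2 window (chr5:32136322-32136471) lies within its gene (chr5:32135801-32157842, + strand). The bases just before these 2 GENCODE starts were not searched. A match describes letters only and says nothing of binding in these cells.

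Fos, the founding FOS gene, was at 23.8 CPM in library 1 (95% exact Poisson interval 16.3 to 33.6), 178 CPM in library 2 (173 to 184) and reached 3932 CPM in library 3 (3904 to 3960). These intervals hold for counting error alone, and the spread between animals is unknown. The level in library 3 was 22.1 times that in library 2 (95% counting interval 21.4 to 22.7) and 165 times that in library 1 (117 to 241), where 32 UMIs were counted. In library 2 it was 7.48 times that in library 1 (5.29 to 11.0). The 3 libraries were thus ordered 3, 2, 1 for Fos, and none of the intervals overlapped. At equal depth, with each cell thinned to 2000 UMIs, a Fos UMI was found in 4.66% of cells in library 1 (exact Clopper-Pearson interval 2.83 to 7.18). This share was 26.1% in library 2 (24.7 to 27.6), and library 3 reached 99.5% (99.2 to 99.7). Without thinning the shares were 4.43%, 55.9% and 100%. A library 3 cell held 7 Fos UMIs of 2000 at the median, from 2 at the 5th percentile to 16 at the 95th, so the higher level was found across nearly all cells of the library and not in a few.

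Fosb, a second FOS gene with transactivating and truncated protein forms, followed the same order. It was at 3.72 CPM in library 1 (1.21 to 8.69, 5 UMIs), 21.9 CPM in library 2 (20.04 to 23.8) and reached 519 CPM in library 3 (509 to 529). The ratio of library 3 to library 2 was 23.7 (21.7 to 26.0), close to that of Fos. At 2000 UMIs per cell it was found in 0.490%, 4.46% and 57.2% of cells of libraries 1, 2 and 3, against 0.821%, 12.3% and 84.5% without thinning. Fosl2, which encodes the FOS family member FRA2, was low in each library. It was at 2.98 CPM (0.811 to 7.63, 4 UMIs), 8.22 CPM (7.11 to 9.44) and 9.36 CPM (8.06 to 10.8) in libraries 1, 2 and 3. The ratio of library 3 to library 2 was 1.14, with an interval of 0.927 to 1.40 that includes no difference, and its thinned shares of 1.77% and 1.89% lay within each other's intervals. Against library 1, with its 4 UMIs, the ratio was 2.76 for library 2 (1.06 to 10.2) and 3.14 for library 3 (1.21 to 11.7), so library 1 was the lowest, as for Fos and Fosb.

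The 3 JUN genes were already well detected in libraries 1 and 2 and were higher in library 3 by a smaller factor than Fos. Jun, whose protein is the main partner of FOS, was at 366 CPM in library 1 (334 to 399), 610 CPM in library 2 (600 to 620) and reached 4949 CPM in library 3 (4918 to 4980). The ratio of library 3 to library 2 was 8.11 (7.97 to 8.26). Library 2 was above library 1 by 1.67 times (1.52 to 1.83). Thinned shares were 45.1%, 67.4% and 99.9% in libraries 1, 2 and 3, and 46.6%, 93.1% and 100% without thinning. Junb, a JUN protein with weaker transactivation, was at 453 CPM (417 to 490), 476 CPM (467 to 485) and 3072 CPM (3048 to 3097). Libraries 1 and 2 were not told apart for Junb (ratio 1.05, 0.969 to 1.14), and library 3 was 6.45 times library 2 (6.33 to 6.59). Jund, the JUN gene that is known for steady expression, was at 305 CPM (276 to 336), 308 CPM (301 to 315) and 2325 CPM (2304 to 2346). For it too libraries 1 and 2 did not differ beyond counting error (ratio 1.01, 0.914 to 1.12, with a log2 ratio from −0.07 to 0.18 over other settings), and library 3 was 7.54 times library 2 (7.36 to 7.73). At 2000 UMIs per cell Junb was found in 55.6%, 58.5% and 98.8% of cells and Jund in 47.8%, 45.4% and 97.1%. Without thinning these were 53.7%, 90.4% and 99.97% for Junb and 44.7%, 81.2% and 99.8% for Jund. Jun overlaps the antisense gene Junos, Jund the antisense gene Gm11175 and Junb the gene Prdx2 on the opposite strand. The strand setting of the counting is not given in the sources used here, so reads of these overlaps may not be assigned with certainty.

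Atf3, a stress-induced ATF factor that can repress as a homodimer, did not differ between libraries 1 and 2 beyond counting error. The same was found for Junb, Jund and Maff. Atf3 was at 23.1 CPM in library 1 (15.7 to 32.8, 31 UMIs), 17.8 CPM in library 2 (16.1 to 19.5) and reached 402 CPM in library 3 (393 to 411). The ratio of library 2 to library 1 was 0.769, with an interval of 0.534 to 1.15, whereas those of Fos, Fosb, Fosl2 and Jun lay above 1 with their whole intervals. The ratio of library 3 to library 2 was 22.6 (20.5 to 24.99). Thinned shares were 4.66%, 3.84% and 51.3%, against 4.27%, 10.9% and 82.8% without thinning. Maff, the small MAF gene of the set, was near the limit of detection, with 3, 26 and 108 UMIs. These gave 2.23 CPM (0.461 to 6.53), 1.08 CPM (0.705 to 1.58) and 5.46 CPM (4.48 to 6.60). Library 3 was 5.06 times library 2 (3.28 to 8.10), but the ratio to library 1 was 2.45 with an interval of 0.815 to 12.04. Maff was found in at most 1.04% of thinned cells in any library.

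**Figure D1:**
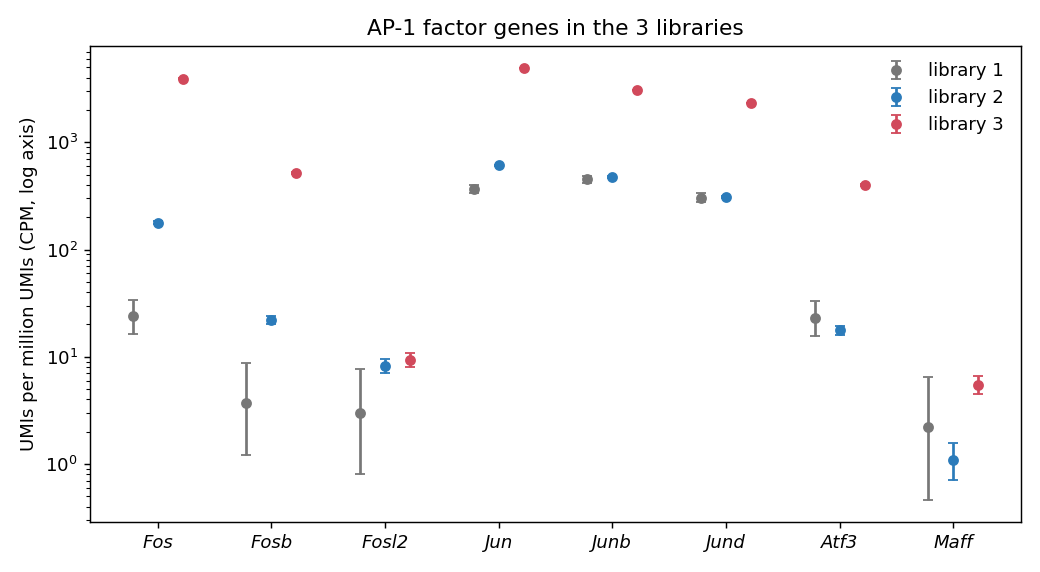
Level of each of the 8 genes in the 3 libraries, as UMIs per 1000000 UMIs (CPM) on a log axis; points are library totals and bars are 95% exact Poisson intervals, which cover counting error only. For Fos, Fosb, Jun, Junb, Jund and Atf3 library 3 lies far above the others (Fos 3932 CPM against 178 and 23.8), while Fosl2 is at 8.22 and 9.36 CPM in libraries 2 and 3.

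The size of these differences was read against all genes. A gene counted as higher if its log2 ratio of CPM + 1 was at least 1, among the 8130 genes with a mean of at least 10 CPM over the libraries. Of the 8 members, 6 passed this filter and Fosl2 and Maff did not. The mean takes in library 3, so a high level there helps a gene to pass. All 6 were at least 2-fold higher in library 3 than in library 2, beside 1.32% of all genes tested (107 genes), and 6 of 6 were higher in library 3 than in library 1, beside 3.62% (294 genes). In library 2 over library 1 it was 2 of 6, Fos and Fosb, beside 4.55% (370 genes). The members were selected on these levels and filtered with library 3 included, so nothing is read from these shares. The median log2 ratio of library 3 to library 2 was 3.72 for the 6 members and −0.02 for all genes. Among all genes ordered from the highest ratio of library 3 to library 2, Fosb ranked 4 (log2 4.51), Fos 6 (4.46), Atf3 7 (4.42), Jun 20 (3.02), Jund 23 (2.91) and Junb 29 (2.69). In library 3 over library 1, Fos ranked 1 (log2 7.31) and Fosb 3 (6.78), while Junb (2.76) ranked 37. The 2 ratios share library 3 and are not independent of each other. Library 1 is shallow, and comparisons with it depend on the scaling. By total UMIs, 294 genes were higher and 407 lower in library 3 over library 1, against 482 and 203 by median-of-ratios size factors, which moved the median of all genes from −0.09 to 0.10. For library 2 over library 1 the split went from 370 and 301 to 539 and 146. The members' counts of 6, 6 and 2 were the same under both scalings.

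**Figure D2:**
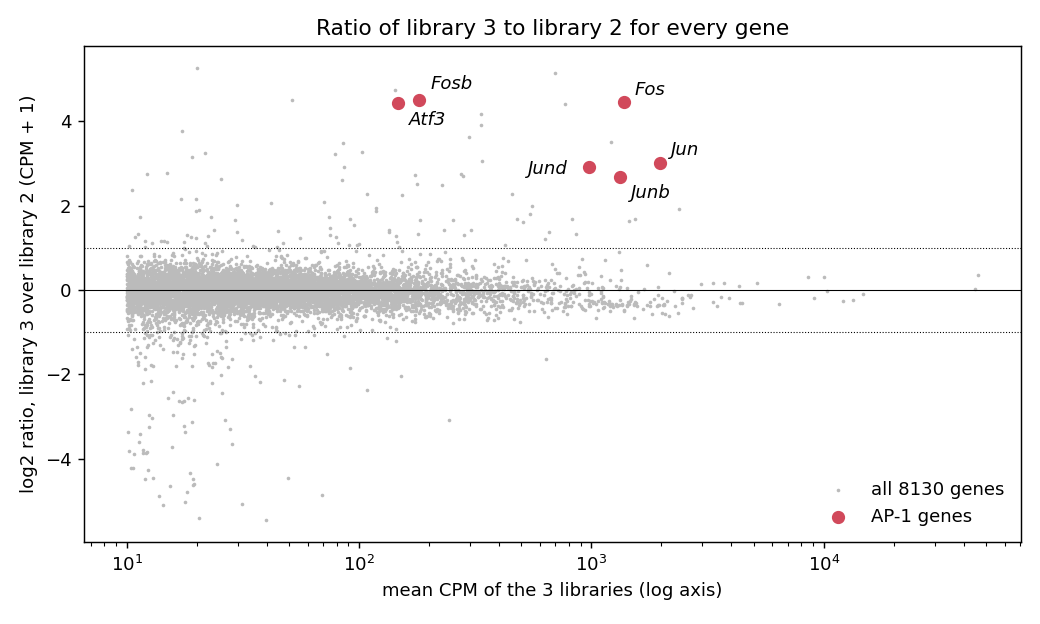
Log2 ratio of library 3 to library 2 (CPM + 1) against mean CPM on a log axis, with 1 point per gene for 8130 genes and the AP-1 genes that passed the filter in red; dotted lines mark a 2-fold ratio. The 6 red points lie between 2.69 and 4.51, and the median of all genes is −0.02.

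The make-up of the AP-1 transcript pool also differed between libraries. Each UMI stands for 1 captured transcript, so no division by length was made, and shares are compared across libraries and not between genes. Fos made up 2.02% of the UMIs of the 8 genes in library 1 (1.39 to 2.84), 11.0% in library 2 (10.7 to 11.3) and as much as 25.8% in library 3 (25.7 to 26.0). Fosb made up 0.316%, 1.35% and 3.41%. Junb went the other way, with 38.4% (36.0 to 40.8), 29.4% (28.9 to 29.8) and 20.2% (20.05 to 20.3), and so did Jund with 25.9%, 19.01% and 15.3%. Jun was highest in library 2, at 31.0% (28.7 to 33.3), 37.6% (37.1 to 38.1) and 32.5% (32.4 to 32.7) in libraries 1, 2 and 3. Atf3 made up 1.96%, 1.10% and 2.64%. Most captured UMIs of the pool came from the JUN genes in each of the 3 libraries, which does not rank genes by expression. Fos and Fosb took their largest part of it in library 3.

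**Figure D3:**
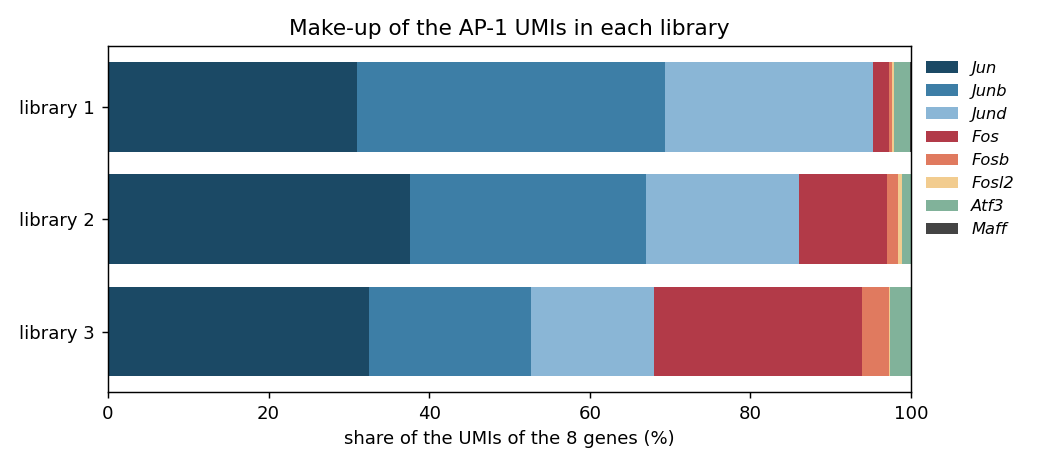
Share of each gene in the summed UMIs of the 8 AP-1 genes, as 1 stacked bar per library adding up to 100%. The red Fos segment widens from 2.02% in library 1 to 11.0% in library 2 and 25.8% in library 3, while the Junb segment narrows from 38.4% to 29.4% and 20.2%.

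Summed over the 8 genes, AP-1 transcripts made up 0.123% of the thinned UMIs in library 1, 0.163% in library 2 and 1.49% in library 3. Without thinning these were 0.118%, 0.162% and 1.52%. The 408 thinned cells of library 1 held 2.47 AP-1 UMIs on average (median 2, at most 10), the 3569 of library 2 held 3.26 (median 3, at most 17) and the 3284 of library 3 held 29.8 (median 29, at most 73). Thinning left out 201, 22 and 38 cells that were too shallow. The distributions hardly met. In library 3 the lowest cell had 3 UMIs and the 5th percentile was 13, which 10 cells of library 2 (0.280%) reached. None of the 8 genes was found in 55 cells of library 1 (13.5%) and 201 of library 2 (5.63%). At least 5 of the 8 genes were found together in 76.7% of library 3 cells and in 0.953% of library 2 cells. The cells of library 3 still differed widely from each other. Their counts had humps, with 334 cells at 18 to 20 UMIs, 220 at 27 to 29 and 276 at 33 to 35. The same shape was found without thinning, with 548 cells at 0.8 to 1.0% of their UMIs, 302 at 1.4 to 1.6% and 358 at 1.8 to 2.0%. This spread moved with depth in part. With library 3 cut by depth into 3 equal groups of cells, the shallowest group had a mean of 26.0 AP-1 UMIs and a median of 22, the middle group 32.3 and 32, and the deepest 31.3 and 31. Cut by mitochondrial share in the same way, the means were 31.9, 30.3 and 27.3 from the lowest share to the highest. The part of depth or RNA quality in the spread was not tested.

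**Figure D4:**
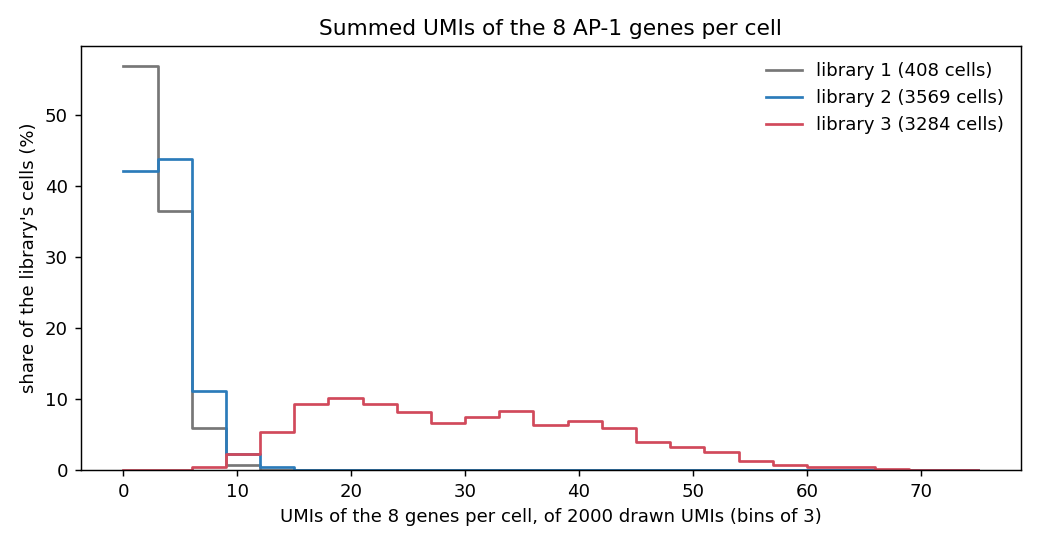
Distribution over cells of the summed UMIs of the 8 AP-1 genes, of 2000 drawn UMIs per cell in bins of 3, as the share of the cells of each library (%). Libraries 1 and 2 have medians of 2 and 3 UMIs, and library 3 spreads around 29 with one hump near 18 to 20 UMIs and another near 33 to 35.

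The variance of thinned UMIs over their mean, which is near 1 for a gene that varies only by counting, was used to place each gene among those found in at least 10% of cells. In library 3 it was 2.66 for Fos, which ranked 8 of 3020 genes, 2.21 for Jun (rank 11), 1.95 for Junb (14) and 1.68 for Jund (22), with a median of 1.01 over all genes. Fosb was at 1.41 (rank 35) and Atf3 at 1.22 (rank 68). Fosl2 (1.04) and Maff (0.990) were close to counting error. The ratio rises with a gene's level, so genes of different levels are not comparable by it. In library 2 Fos was at 1.31 (rank 22 of 3004) and Jun at 1.27 (29), while Atf3 was at 0.990. The top 10% of library 3 cells by a gene's UMIs held 22.03% of all Fos UMIs, 36.0% of Fosb UMIs and 36.2% of Atf3 UMIs. This share rises as a gene's level falls, so genes of different levels are not comparable by it either.

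The AP-1 genes varied together across the cells of library 3. Over the 15 pairs of the 6 genes found in at least 10% of its cells, the Pearson correlation of log2(thinned UMIs + 1) had a median of 0.287 and ran from 0.0570 to 0.452. The median over all 4558690 gene pairs was −0.0002 and the 99th percentile 0.0421, below each of the 15. The correlations rise with the UMIs drawn per cell (median of the 15 pairs 0.172 at 1000 UMIs). Genes of different levels are therefore not comparable by them, and the gene pairs were not matched by level. Cells of 1 library share their source, so these are descriptions. Fos and Jun, which form the classical dimer, gave 0.452, Fos and Junb 0.411 and Jun and Junb 0.401. Jund gave 0.317 to 0.376 with the other JUN genes and Fos. Fosb gave 0.264 to 0.297 with Fos, Jun, Junb and Jund. Atf3 gave at most 0.134, with Jun, and 0.0570 with Fosb. Its mean was 0.794 UMIs per cell, against 1.02 for Fosb, and the part of level in these values was not tested. Fosl2 and Maff had correlations between −0.01 and 0.04 with every other member. Within the 3 groups by depth the median over the 15 pairs was 0.301, 0.267 and 0.236 from shallow to deep. The AP-1 sum had a correlation of 0.206 with the depth of the cell in library 3. The part of depth in the correlations of the members was not tested. In library 2 the 6 pairs of the 4 genes found in at least 10% of cells had a median of 0.0607 (0.0537 to 0.0747). The 99th percentile of all gene pairs was 0.0405 there, below each of the 6, so the values were above most pairs. The members had fewer UMIs per cell in library 2, so these values are not comparable with those of library 3. In library 1 the 3 pairs had a median of 0.0306, with a 99th percentile of 0.122 over all pairs, and 0 of the 3 lay above it.

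**Figure D5:**
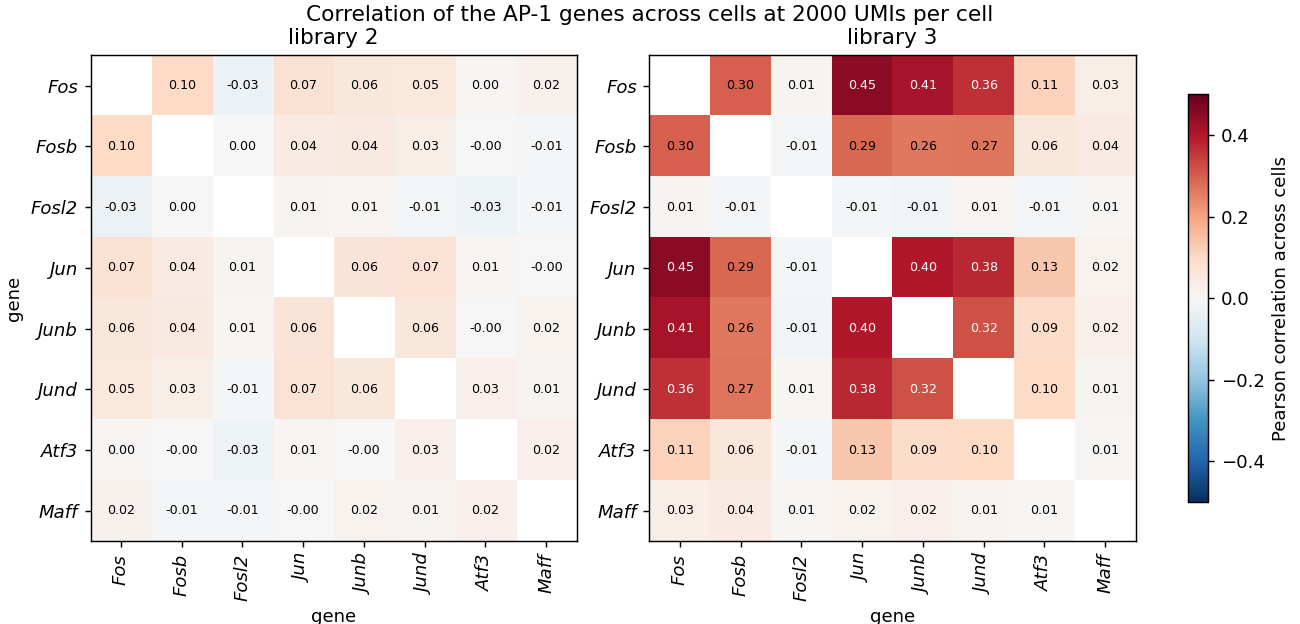
Pearson correlation of log2(UMIs + 1) across cells at 2000 UMIs per cell for each pair of the 8 genes, in library 2 (3569 cells) and library 3 (3284 cells), with the value printed in each square. In library 3 the squares of Fos, Fosb, Jun, Junb and Jund run from 0.26 to 0.45, those of Atf3 with these genes from 0.06 to 0.13, and in library 2 the highest is 0.10, between Fos and Fosb.

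The genes whose counts went most closely with the summed AP-1 UMIs in library 3, among 3014 non-members found in at least 10% of cells, were Klf2 (r 0.493), a Krüppel-like factor, Btg2 (0.493), an antiproliferative gene, Dusp1 (0.448), a phosphatase that inactivates MAP kinases, and H3f3b (0.412), a histone H3.3 gene. Klf6 (0.341), Rhob (0.309), Klf4 (0.298), Ier5 (0.297), Zfp36 (0.283), which destabilises AU-rich mRNAs, and Socs3 (0.282), an inhibitor of cytokine signalling, followed. The median over all these genes was −0.008 and the 95th percentile 0.0416. As with the member pairs, genes of different levels are not comparable by these values. Klf2 was also the closest non-member of Fos (0.400), Junb (0.346) and Atf3 (0.109), Btg2 that of Jun (0.393) and Jund (0.299), and Dusp1 that of Fosb (0.255). The closest genes of Fosl2 (Tmem135, 0.0609) and Maff (Ccl4, 0.0740) were at the level of sparse counts. Klf2 was at 70.7, 290 and 3282 CPM in libraries 1, 2 and 3, and Dusp1 at 19.4, 56.4 and 2013 CPM. In library 2 values were 0.116 for Btg2, 0.0783 for Klf2, 0.0669 for Rgs1 and 0.0625 for Ifnar2. In library 1 they were 0.223 for Prpf19, 0.172 for Mat2a, 0.169 for Cyth2, 0.168 for Inpp4b and 0.164 for Hivep3 over 408 cells, and at that depth nothing is read from them.

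AP-1 levels were also set beside Mki67, a proliferation marker, and Myc, the cell-cycle regulator the study followed. In library 2 the 1255 thinned cells with a Mki67 UMI had a mean of 3.15 AP-1 UMIs (95% counting interval 3.05 to 3.25) and the 2314 without one 3.32 (3.24 to 3.39). Their median depths before thinning were 7329 and 5595.5 UMIs. In library 3 Mki67 was found in 23 thinned cells, with 30.9 AP-1 UMIs (28.6 to 33.2) against 29.8 (29.7 to 30.0) in the others. Median depths there were 7155 and 5763 UMIs. Cells of library 3 with a Myc UMI (1243 cells) had 30.8 (30.5 to 31.1) and those without (2041 cells) 29.3 (29.03 to 29.5), and their median depths were 6167 and 5542 UMIs. In library 2 the values were 3.20 (3.08 to 3.33) and 3.28 (3.21 to 3.34), at median depths of 6955 and 5771 UMIs. The part of depth in these differences was not tested. The intervals leave out the spread between cells, which in library 3 had a standard deviation of 12.2 UMIs, so they are too narrow for it. The differences within a library were thus small beside that between libraries 2 and 3, in cells with and without either gene.

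Other genes of the pathway were taken from lists, which were chosen with earlier results of these data known. Most genes named from a list are those farthest from 0 in the log2 ratio of library 3 to library 2. Of 31 other bZIP genes, 30 were in the matrix and 22 were tested. Of all 8130 genes tested, 1.32% were at least 2-fold higher in library 3 than in library 2, and 156 genes were lower. Of the 22, 2 were higher and 0 lower, with a median log2 ratio of 0.13. These were Cebpa (124 to 335 CPM, log2 1.42), a myeloid differentiation factor, and Atf4 (112 to 228 CPM, log2 1.02), the effector of the integrated stress response. Mafk (log2 0.82), Ddit3 (0.58), Cebpb (0.57) and Cebpg (−0.61) stayed within 2-fold. Mafa and Nfe2l3 had no UMI in any cell, which allows up to 0.0664 CPM over the series. Against library 1, 3.62% of all genes tested were higher in library 3 and 407 genes were lower. Of the 22, Atf4 was higher there (log2 1.10) and Maf lower (−1.32, 595 to 238 CPM). Of 24 upstream genes of the MAP kinase and serum response pathways, 18 were tested. In library 3 over library 2, 0 of them were higher or lower by 2-fold, with log2 ratios from −0.30 to 0.52. Since only 1.32% of all genes were higher, nothing is read from this count of 0. The farthest of the 18 were Map3k8 (log2 0.52), Map2k1 (0.39), Mkl1 (−0.30), Elk4 (0.21), Mapk3 (−0.18) and Rps6ka3 (−0.18). Their transcript levels say nothing of kinase activity. Against library 1, 0 of these were higher and 1 lower, Map3k1 (−1.32).

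Of 18 known AP-1 target genes, 9 were tested. Beside 1.32% of all genes tested, 3 of the 9 were at least 2-fold higher in library 3 than in library 2. Lower was 1 of the 9, beside 156 of all 8130 genes tested. Of the higher genes, the chemokine gene Ccl2 was at 77.3 and 446 CPM in libraries 2 and 3 (log2 2.51) and Tnf at 37.3 and 162 CPM (2.09). Spp1, the osteopontin gene, was lower, at 24.7 and 3.14 CPM (−2.63), and Odc1 (0.70) and Il6 (0.48) were within 2-fold. Mmp3, Mmp9, Mmp13 and Timp1 had no UMI in any cell. The median over the 9 genes was 0.48. Against library 1, 3 of them were higher, beside 3.62% of all genes tested. Lower were 2 of the 9, beside 407 of all 8130 genes, namely Spp1 (log2 −2.67) and Il6 (−1.29, 31.3 to 12.2 CPM). The list was chosen with earlier results known, so nothing is read from these counts.

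Heat shock genes, which respond to cell stress, were also highest in library 3 when summed, with a mean of 2.82, 5.34 and 9.31 UMIs of the list per thinned cell in libraries 1, 2 and 3. Of 11 tested, 3 were at least 2-fold higher in library 3 than in library 2, beside 1.32% of all genes tested. These were Hspb1 (0.581 to 59.0 CPM), Hspa1a (5.60 to 148 CPM) and Dnajb1 (65.0 to 254 CPM). Hspa8 (log2 0.89), Hsph1 (0.81) and Hsp90aa1 (0.72) were within 2-fold in that comparison. In library 3 over library 1, 9 of the 11 were higher, beside 3.62% of all genes. The list was chosen with earlier results known, so nothing is read from these counts. For Hspb1 the lower libraries were not told apart, with 0.745 CPM in library 1 (0.0189 to 4.15, 1 UMI) and 0.581 CPM in library 2 (0.318 to 0.975). Across cells, the heat shock sum had a correlation with the AP-1 sum of 0.008, 0.004 and 0.085 in libraries 1, 2 and 3. The 95th percentile of the correlations of single genes with the AP-1 sum was 0.0863, 0.0306 and 0.0416, so the value in library 3 lay above it and the others below. A sum over a list and single genes are unlike measures, so nothing more is read from this. Median mitochondrial shares were 0.945%, 1.52% and 1.20% of UMIs. Sorting, handling time and stress of the cells are not recorded by library, and their part in the AP-1 levels was not tested.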

How the data were processed

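Cells were counted with a droplet-based 3′ kit, for which the labels name version 3.1 and the methods version 3. The authors deposited raw UMI counts per gene and cell as 1 matrix of 27998 genes and 7522 cells, without normalization. The submitters' processing notes name Cell Ranger 2.1.1 and mm10. For the strand setting, the rule that called cells and any down-sampling between libraries, nothing is given in the sources used here. The later time point and the knockout libraries were not analysed here.

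The 8 members and all gene lists were chosen with earlier results of these data known. Libraries were separated by barcode suffix, and no column of per-sample values was left unused. All deposited cells were kept. The sort excluded doublets and no doublet caller was run. CPM is a gene's UMIs per 1000000 UMIs of the library, with 95% exact Poisson intervals. Ratios have exact conditional binomial intervals, shares exact Clopper-Pearson intervals, and all cover counting error only. A count of 0 was given a limit of 3 counts. Cells were thinned to 2000 UMIs without replacement (seed 1). Log2 ratios used CPM + 1 (pseudocount 1) over genes with a mean of at least 10 CPM, and a ratio of 2 counted as a difference. A fold change on this scale understates the change of low genes. With 1 library per group no test was made.

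Named genes are the 8 members, the 6 genes of each list farthest from 0 in the log2 ratio of library 3 to library 2 plus those with no UMI, the 10 (library 3) or 5 (libraries 1 and 2) genes that correlate most with the summed members, the closest non-member of each member in library 3, and Mki67 and Myc. Some genes that this rule names are not reported here. Map3k1 and Maf, and the genes of the closing observations, fall outside this rule and were named after their values were seen. Gene positions are from GENCODE M21 and matched 8 of 8 members by identifier, and promoters are from RefSeq (GRCm38.p6). The steps were tested on simulated data. Alternatives were other cell filters, thinning depths and seeds, scalings, pseudocounts, low-count filters and correlation measures. Python 3.11.15 was used with pandas 2.3.3, numpy 2.4.6 and scipy 1.17.1.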

Additional observations from a re-analysis of the deposited data

How the results depend on the processing

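No paired analysis was possible because no value comes from a test and each group has 1 library. Of 1136 values under alternatives, 961 stayed within their counting error or within 1.5 times the main count, 175 moved and 0 reversed. Only ratios whose main interval excluded no difference could count as reversed, and all other values could only stay or move. All 6 tested members stayed at least 2-fold higher in library 3 under each setting. Without a filter on low counts 7 of 8 were higher in each comparison. The exception was Fosl2 (log2 0.17) over library 2 and Maff (log2 0.999, 3 UMIs in library 1) over library 1. Over all genes this setting gave 224 and 673, out of a number tested that is not given here, so nothing is read from the 7. Among 168 member ratios 1 changed sign, that of Jund in library 2 over library 1 (0.01, from −0.07 to 0.18). Thinning to 1000 UMIs gave a variance over mean of the summed members of 1.30 in library 2 and 3.01 in library 3, and a median correlation of 0.172 in library 3. Without thinning the median correlation was 0.466 in library 3 and 0.122 in library 2, and the members' share of library 3 UMIs was 1.52%. Without a filter on low counts, 224, 673 and 909 of all genes were higher in library 3 over 2, 3 over 1 and 2 over 1. With at least 50 CPM these were 66, 124 and 119. Median-of-ratios scaling gave 482 for library 3 over 1. Of the other bZIP genes, 1 was higher in library 3 over 2 with a pseudocount of 5. In library 3 over 1, 2 were higher with the strict cell filter, with median-of-ratios scaling and with scaling to UMIs without members, mitochondrial and ribosomal genes. Of the upstream genes, 1 was higher in library 3 over 1 with the strict filter, with median-of-ratios scaling and without a low-count filter, while 2 were lower with the strict filter and 0 with at least 50 CPM. Of the target genes, 0 were lower in library 3 over 2 or 3 over 1 with at least 50 CPM, and 5 were higher in library 3 over 1 without a filter. The cause of these moves was not tested beyond the fewer or more genes that a filter leaves. Depth limits Maff, Fosl2 and Fosb most, with 3, 4 and 5 UMIs in library 1.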

Other observations

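Other genes stood beside the AP-1 genes among the highest ratios of library 3 to library 2, and they were named after their values were seen. The immediate early genes Ier2 (38.7, 101 and 2158 CPM in libraries 1, 2 and 3) and Egr1 (9.68, 51.8 and 944 CPM) differed in the order of Fos and Fosb. The chemokine genes Ccl3 (90.1, 55.7 and 856 CPM) and Ccl4 (136, 94.2 and 785 CPM) were lower in library 2 than in library 1, as Atf3 was by its central value. Junos, the antisense gene that overlaps Jun, was at 1.49, 3.86 and 31.5 CPM, and since the strand setting of the counting is not given, reads of Jun and Junos may not be told apart.

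The genes that went most against the AP-1 sum across the cells of library 3 were the complement gene C1qb (r −0.154), the protease inhibitor gene Cst3 (−0.149) and C1qa (−0.129). The 3 genes are among the most abundant of these cells, at 11894, 37004 and 15411 CPM in that library, and values within a cell of 2000 UMIs share a fixed total. The part of that total in these correlations was not tested.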
